A study of Cricetulus griseus with 24 samples.

Results

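The mitochondrial carrier family Slc25 was followed at the RNA level in phagocytes that met apoptotic cells. Its members were taken by name, as every gene whose symbol begins with Slc25a and a number in the count tables, and 44 such genes stood among 26776 gene names. Of these, 34 reached a mean of at least 0.5 CPM (counts scaled to library size, here with edgeR's TMM factors) in at least 1 of the 6 groups, and all 34 also passed the filter for testing in both experiments. The 10 genes below that level were Slc25a2, Slc25a4, Slc25a21, Slc25a23, Slc25a27, Slc25a29, Slc25a31, Slc25a34, Slc25a48 and Slc25a53. The nearest to the limit on either side were Slc25a4 at 0.403 CPM and Slc25a29 at 0.394 CPM below it, and Slc25a41 at 0.834 CPM and Slc25a18 at 0.858 CPM above it, each in its highest group.

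Slc25 carriers sit in the inner mitochondrial membrane, apart from a few in the outer membrane or in peroxisomes, and move nucleotides, phosphate, carboxylates, amino acids, cofactors and metal ions between cytosol and matrix. Most exchange 1 solute for another, and their supply sets which metabolites the matrix shares with the cytosol. A phagocyte that digests a corpse takes in that corpse's lipids, nucleotides and amino acids, and part of this load is metabolised in mitochondria. No sequence is printed for these genes.

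All libraries came from LR73 cells, a hamster fibroblast-like line derived from Chinese hamster ovary cells and used as a phagocyte model, with 4 biological replicates per group. In the first experiment, phagocytes were given apoptotic cells and cytochalasin D together, apoptotic cells alone or cytochalasin D alone, or were left alone as the control. Cytochalasin D caps actin filaments and blocks engulfment while leaving contact with the corpse possible. The second experiment set Slc12a2-deficient against wildtype phagocytes, both kept for 2 h with apoptotic cells and then sorted for CypHer5E, a dye that brightens in acidic phagosomes and so marks cells that had engulfed. Slc12a2 encodes NKCC1, a cotransporter of sodium, potassium and chloride. Apoptotic cells were Jurkat cells, a human T lymphoma line, irradiated with 1500 mJ of ultraviolet C light and kept for 4 h before use. The labels do not say how long the first co-culture lasted, how Slc12a2 was removed or whether the deficient cells are a single clone.

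Libraries of the first experiment held 8272232 to 18911353 counted fragments, and those of the second held 22758587 to 28450594. Slc12a2 itself stood at 25.4, 22.4, 24.7 and 26.2 CPM in the deficient libraries, against 93.4, 91.2, 99.5 and 103 CPM in the wildtype ones (p = 0.0286 by a two-sided exact permutation test, which with 70 assignments can go no lower). The deficient cells therefore still held 25.5% of the wildtype transcript level. Of the fibroblast markers, Vim was abundant, with a mean of 2962 to 5420 CPM in the 6 groups, whereas Col1a1 and Thy1 stayed near 0 in all of them. The list of 11 fibroblast markers summed to 4471 to 4919 ppm of counts with both treatments and 6872 to 7253 ppm with apoptotic cells. With cytochalasin D it summed to 4483 to 5036 ppm and in control to 5759 to 6214 ppm, so the sum moved with treatment. Vim, the largest of the list, had means of 3247, 5420, 3278 and 4334 CPM in these groups, in the same order. Fn1, the next largest, had 1042, 986, 967 and 1027 CPM. Of 8 markers tested, 1 was higher and 4 lower for both treatments over apoptotic cells (62.5%, against 32.5% of all genes). For apoptotic cells over control, 1 was higher and none lower (12.5%, against 13.7% of all genes), and that 1 was Vim. Among 20 T lymphocyte markers, Cd3g, Cd2 and Cd5 had no counts in any group, and the list summed to 51.4 to 58.4 ppm of counts with both treatments, 54.6 to 58.9 ppm with apoptotic cells, 44.0 to 48.5 ppm with cytochalasin D and 47.1 to 54.9 ppm in control. The highest of the list were Tcf7, Themis and Lat, which stood at 23.7, 12.9 and 11.0 CPM in control, so the sum is not a measure of corpse RNA. Lck, Zap70 and Lef1 reached 1.68 to 3.35 CPM with apoptotic cells and were at or near 0 without them in the first experiment. The part of these shifts and of corpse RNA in the carriers' values was not tested, and in bulk RNA fewer cells of a type cannot be told apart from less RNA per cell.

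Carrier levels spanned more than 3 orders of magnitude per length. Per kilobase of exon, Slc25a5, the adenine nucleotide carrier that exchanges matrix ATP for cytosolic ADP, stood highest, at 766 CPM per kb with both treatments, 758 with apoptotic cells, 717 with cytochalasin D and 739 in control. Slc25a3, which brings phosphate and copper into the matrix, followed at 618, 611, 586 and 567 CPM per kb in the same groups. Slc25a39, a carrier needed for glutathione import, came next at 167, 182, 171 and 182 CPM per kb. In control cells the citrate carrier Slc25a1 came after these at 49.7 CPM per kb, then the acylcarnitine carrier Slc25a20 at 41.3 and the iron carrier Slc25a28 at 39.2 CPM per kb. The low end was held by Slc25a47, Slc25a18 and Slc25a41, at 0.348, 0.316 and 0.272 CPM per kb in control.

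Slc25a3, Slc25a5 and Slc25a39 together made up 60.0 to 63.1% of the family's summed CPM in the 6 groups. The summed raw counts of the 34 members took 2981 to 3073 ppm of each library with both treatments, 3082 to 3166 ppm with apoptotic cells, 2919 to 2970 ppm with cytochalasin D and 3018 to 3157 ppm in control. The ranges with cytochalasin D alone lay below those of control and of both treatments without overlap. Those of both treatments lay below those of apoptotic cells alone, also without overlap, whereas apoptotic cells alone and control overlapped. In the second experiment the sum was 2708 to 2995 ppm in Slc12a2-deficient libraries and 2528 to 2582 ppm in wildtype ones, which did not overlap either.

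**Figure D1:**
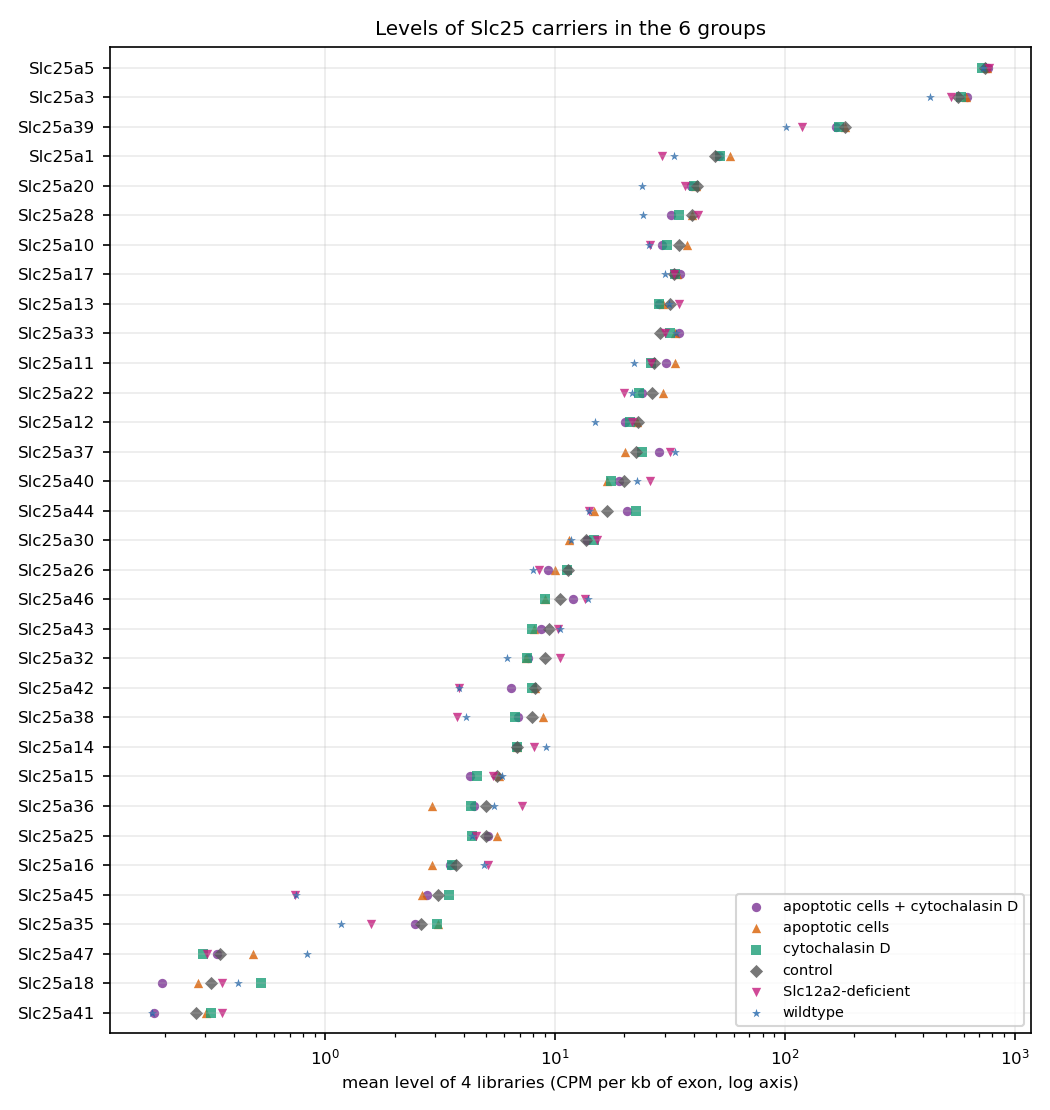
Mean level of Slc25 carriers in CPM per kb of exon (x, log axis) in the 6 groups, 4 libraries per point, ordered by the control level. Slc25a5, Slc25a3 and Slc25a39 stand apart at the top and Slc25a47, Slc25a18 and Slc25a41 at the bottom in the first experiment, and Slc25a35, Slc25a42, Slc25a38 and Slc25a45 show their second experiment points well to the left of the first. The 2 experiments were sequenced and scaled separately.

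Among the adenine nucleotide carriers, Slc25a5 did not pass the test in any comparison with all libraries in the fit. Slc25a5 had 791, 749, 811 and 837 CPM with apoptotic cells and cytochalasin D, against 772, 803, 783 and 794 CPM with apoptotic cells. The other groups of that experiment held 709.9, 729.8, 769 and 774 CPM with cytochalasin D alone, against 775, 762, 752 and 786 CPM in control phagocytes. These groups overlapped, and the 95% interval of the log2 difference was -0.03 to 0.11 for apoptotic cells over control (edgeR adjusted p = 0.558) and 0.03 to 0.17 for apoptotic cells with cytochalasin D over cytochalasin D alone (edgeR adjusted p = 0.105). The latter passed without cytochalasin D replicate 4 or without combined treatment replicate 2 (edgeR adjusted p = 0.0404 and 0.0352). In the second experiment, Slc25a5 had 783, 842, 819.6 and 771 CPM in Slc12a2-deficient phagocytes, against 721, 748, 791 and 773 CPM in wildtype phagocytes. That difference was 0.08 on the log2 scale (edgeR adjusted p = 0.148).

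Slc25a4, the paralogue that dominates in heart and muscle, was below the level for membership and was not tested as a member. It had 3, 4, 10 and 3 fragments in the libraries with both treatments, against 0 in each library with cytochalasin D alone. It had 4, 6, 7 and 3 fragments with apoptotic cells, against 1 fragment in 1 of the control libraries and 0 in the other 3. A count of 0 allows up to 0.159 to 0.363 CPM per library at these depths. Both groups that received apoptotic cells thus held Slc25a4 fragments in every library, as they did Lck and Zap70, and the part of corpse RNA in this was not tested. In the second experiment, where all phagocytes had engulfed, Slc25a4 had 1 fragment over the 4 deficient libraries and 7 over the 4 wildtype ones. Lck and Zap70 were near 0 there too, at 0.0495 and 0 CPM in deficient and 0.0585 and 0 CPM in wildtype cells. Slc25a31, the testis form, peaked at 0.0467 CPM, and Slc25a6 was not analysed here. Fragments that match more than 1 of these near-identical genes may have been dropped or split, so their low counts are uncertain.

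The comparison of phagocytes with apoptotic cells and control phagocytes asks which carriers changed when corpses could be touched and eaten. Slc25a36, a carrier of pyrimidine nucleotides that feeds mitochondrial RNA and DNA synthesis, fell most. Slc25a36 had 11.4, 15.6, 10.8 and 13.3 CPM with apoptotic cells, against 24.8, 20.01, 22.7 and 20.3 CPM in control phagocytes. The groups did not overlap, and the mean was 1.73-fold lower with apoptotic cells (log2 -0.79, SE 0.11, edgeR adjusted p = 2.61e-05). Slc25a33, the other pyrimidine nucleotide carrier, was not called. Slc25a33 had 39.4, 37.9, 40.8 and 48.2 CPM with apoptotic cells, against 35.8, 34.4, 36.5 and 36.8 CPM in control phagocytes. Its log2 difference of 0.22 did not pass the test (edgeR adjusted p = 0.0533, and 0.0499 with a filter of 1 CPM), although its groups did not overlap.

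Of the 34 carriers, 8 (23.5%) changed with apoptotic cells, 2 higher and 6 lower, where 13.7% of all 13106 genes tested changed, 6.97% higher and 6.68% lower. The median log2 difference was -0.01 over the carriers and 0.00 over all genes. The other carriers that fell were Slc25a16, Slc25a40, Slc25a30, Slc25a44 and Slc25a37. Slc25a16 had 9.80, 10.6, 8.49 and 10.4 CPM with apoptotic cells, against 14.6, 11.8, 12.4 and 11.0 CPM in control phagocytes. Slc25a16, assigned to coenzyme A supply, was thus 1.28-fold lower (log2 -0.35, SE 0.11, edgeR adjusted p = 0.0298). Slc25a30 had 39.0, 37.0, 38.8 and 38.0 CPM with apoptotic cells, against 45.9, 47.2, 47.0 and 41.2 CPM in control phagocytes. That carrier resembles the uncoupling proteins and was 1.19-fold lower (log2 -0.25, SE 0.06, edgeR adjusted p = 0.0105). Slc25a40 had 46.7, 49.9, 41.6 and 45.1 CPM with apoptotic cells, against 59.4, 50.3, 56.8 and 51.7 CPM in control phagocytes. Slc25a40, a close homologue of the glutathione carrier Slc25a39, was 1.19-fold lower (log2 -0.26, SE 0.08, edgeR adjusted p = 0.0398).

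Smaller decreases were found for Slc25a44, which imports branched-chain amino acids (57.6 ± 3.11 CPM with apoptotic cells, against 65.3 ± 3.05 CPM in control, SD, n = 4 each, log2 -0.18, edgeR adjusted p = 0.0375), and for the iron carrier Slc25a37 (89.0 ± 2.09 CPM with apoptotic cells, against 99.5 ± 4.79 CPM in control, log2 -0.16, edgeR adjusted p = 0.0306). The 2 carriers that rose were Slc25a11 and Slc25a3. Slc25a11 had 42.5, 41.4, 43.8 and 42.9 CPM with apoptotic cells, against 33.0, 35.7, 36.8 and 33.4 CPM in control phagocytes. This exchanger of oxoglutarate and malate, part of the malate-aspartate shuttle, was 1.23-fold higher without overlap (log2 0.30, SE 0.08, edgeR adjusted p = 0.0212). Slc25a3 had 811, 794, 836 and 852 CPM with apoptotic cells, against 799.7, 759, 777 and 721 CPM in control phagocytes. The phosphate carrier was 1.08-fold higher, and its groups overlapped (log2 0.11, SE 0.03, edgeR adjusted p = 0.0358). None of the 4 aspartate and glutamate carriers, nor the acylcarnitine carrier Slc25a20, passed the test here.

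The calls of Slc25a36 and Slc25a30 held when any single library was left out. That of Slc25a11 was lost without control replicates 1 and 4 or apoptotic cell replicates 3 and 4 (adjusted p up to 0.0702), that of Slc25a3 without control replicates 2, 3 and 4 or apoptotic cell replicates 1, 3 and 4 (adjusted p up to 0.136), and that of Slc25a16 without control replicates 1 and 3 or apoptotic cell replicates 1 and 3 (adjusted p up to 0.146). That of Slc25a37 was lost without control replicates 1 and 2 or apoptotic cell replicates 1, 3 and 4 (adjusted p up to 0.119), that of Slc25a44 without control replicates 2, 3 and 4 or apoptotic cell replicates 1, 3 and 4 (adjusted p up to 0.119), and that of Slc25a40 without control replicates 1 and 3, cytochalasin D replicate 2, apoptotic cell replicates 1, 3 and 4 or combined treatment replicate 3 (adjusted p up to 0.14). Without apoptotic cell replicate 3, 2 carriers were called in all. Across all genes, the log2 difference with apoptotic cells was smaller for longer genes (Spearman rho = -0.26 over 13106 genes, which are not independent replicates). With each library's length trend removed, 4 carriers were called, 2 higher and 2 lower, 3 of them among the 8, and Slc25a36 stood at -0.71 on the log2 scale (edgeR adjusted p = 9.92e-05) while Slc25a3, Slc25a16, Slc25a37, Slc25a40 and Slc25a44 no longer passed.

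**Figure D2:**
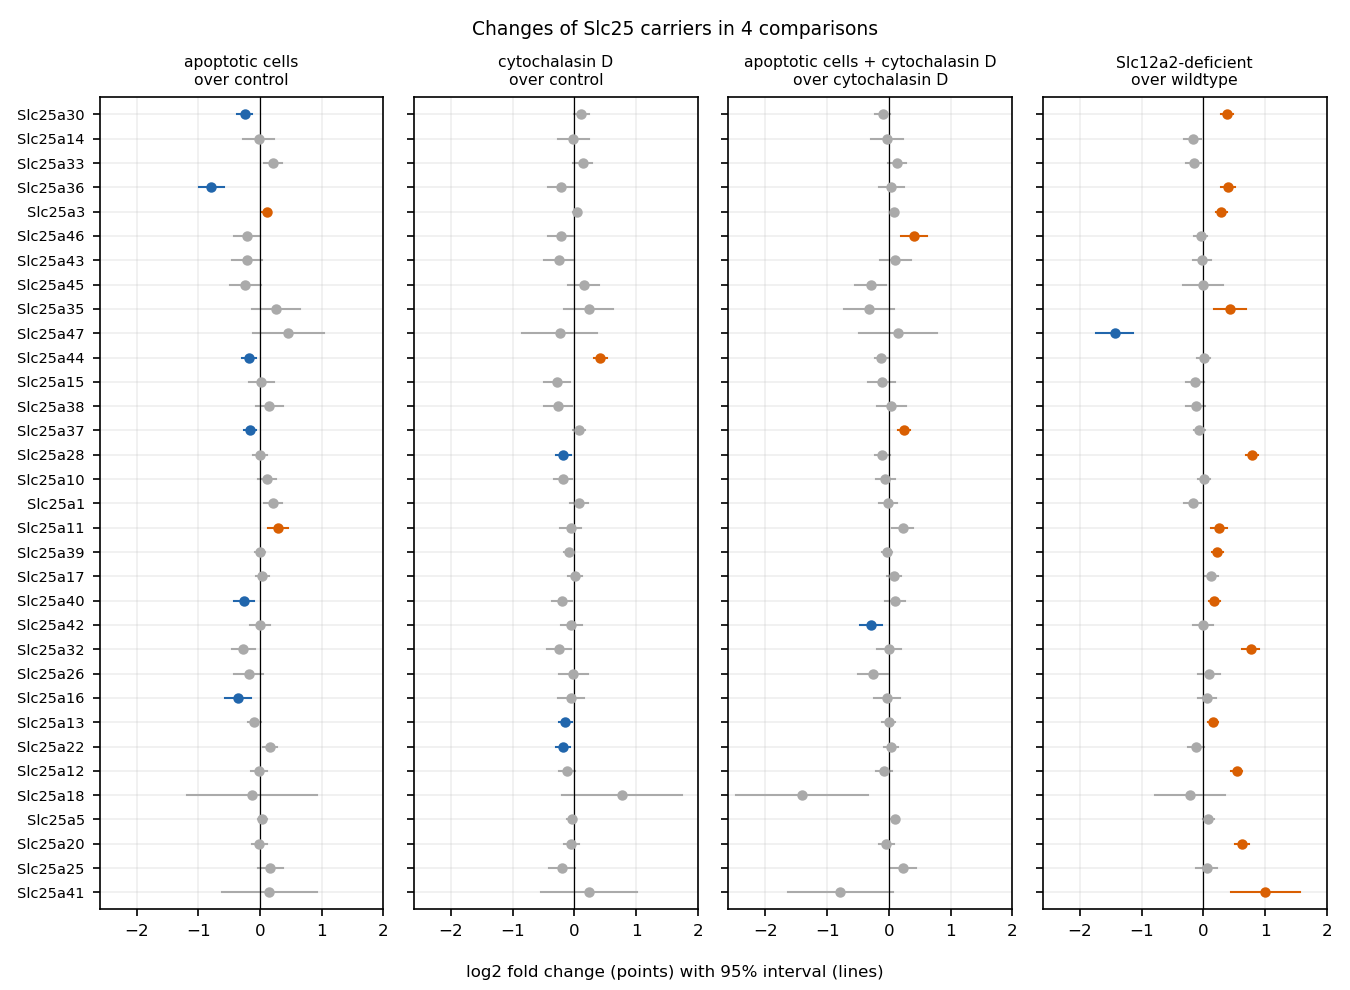
Log2 fold change of Slc25 carriers (points, x axis) with its 95% interval (lines) in 4 comparisons, carriers ordered by role, orange for called higher, blue for called lower and grey for not called (edgeR adjusted p at 0.05). Slc25a36 lies at -0.79 in the first panel and near 0 in the third, and the fourth panel holds 13 carriers called higher and 1, Slc25a47, called lower.

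Cytochalasin D alone was set against control to give the drug's change without corpses. Slc25a44 rose. Slc25a44 had 87.0, 90.5, 89.7 and 82.6 CPM with cytochalasin D alone, against 62.9, 64.5, 64.2 and 69.8 CPM in control phagocytes. The groups did not overlap, and the level was 1.34-fold higher (log2 0.42, SE 0.06, edgeR adjusted p = 3.35e-06). In turn, 3 carriers fell by small amounts, the glutamate carrier Slc25a22, the iron carrier Slc25a28 and the aspartate and glutamate exchanger Slc25a13. Slc25a22 had 66.8, 68.0, 63.3 and 57.8 CPM with cytochalasin D alone, against 72.4, 72.1, 71.9 and 74.8 CPM in control phagocytes. It was 1.14-fold lower (log2 -0.19, SE 0.06, edgeR adjusted p = 0.019), without overlap. Slc25a28 had 67.5, 63.2, 60.6 and 55.3 CPM with cytochalasin D alone, against 67.2, 73.1, 68.4 and 70.6 CPM in control phagocytes. Slc25a13 had 81.6, 94.0, 84.9 and 88.7 CPM with cytochalasin D alone, against 99.8, 92.3, 94.4 and 101 CPM in control phagocytes. The groups overlapped for Slc25a28 (log2 -0.18, edgeR adjusted p = 0.0306) and for Slc25a13 (log2 -0.15, edgeR adjusted p = 0.0399).

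In all, 4 of 34 carriers (11.8%) changed with cytochalasin D, 1 higher and 3 lower, where 26.3% of all genes tested did, 13.5% higher and 12.8% lower. The median log2 difference of the carriers was -0.06, against 0.01 for all genes. Slc25a36 was at 18.8 ± 1.59 CPM with cytochalasin D and 21.9 ± 2.26 CPM in control (SD, n = 4 each), a difference that did not pass (log2 -0.22, edgeR adjusted p = 0.12, 95% interval -0.43 to -0.02). Slc25a33 did not pass either (log2 0.13, edgeR adjusted p = 0.217). The call of Slc25a44 held without any single library. The call of Slc25a22 was lost without cytochalasin D replicate 4 (adjusted p up to 0.0564), that of Slc25a28 without control replicates 2 and 4 or cytochalasin D replicates 3 and 4 (adjusted p up to 0.0933), and that of Slc25a13 without control replicates 1, 3 and 4 or cytochalasin D replicates 1 and 3 (adjusted p up to 0.112), and with the 8 compared libraries alone 2 carriers were called.

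Apoptotic cells under cytochalasin D, against cytochalasin D alone, leave contact with the corpse in place while engulfment is blocked. Slc25a37, known as mitoferrin-1, which brings iron into the matrix for haem and iron-sulphur clusters, rose. Slc25a37 had 125, 123, 120.3 and 129 CPM with apoptotic cells and cytochalasin D, against 103, 108, 113 and 97.1 CPM with cytochalasin D alone. Every library with apoptotic cells was above every library without, by 1.18-fold in the mean (log2 0.24, SE 0.05, edgeR adjusted p = 0.00225). Slc25a46, an outer membrane protein of this family with a part in mitochondrial shape and no known transport activity, rose as well. Slc25a46 had 26.6, 25.9, 23.9 and 29.3 CPM with apoptotic cells and cytochalasin D, against 18.6, 20.7, 21.1 and 19.2 CPM with cytochalasin D alone. It was 1.33-fold higher, without overlap (log2 0.41, SE 0.11, edgeR adjusted p = 0.0221). Slc25a42, a carrier of coenzyme A, fell. Slc25a42 had 19.4, 18.9, 18.7 and 16.2 CPM with apoptotic cells and cytochalasin D, against 22.5, 24.3, 21.9 and 20.99 CPM with cytochalasin D alone. The groups did not overlap and the mean was 1.22-fold lower (log2 -0.29, SE 0.09, edgeR adjusted p = 0.042).

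These were 3 of 34 carriers (8.82%), 2 higher and 1 lower, near the 8.61% of all genes that changed, of which 4.82% were higher and 3.79% lower. Slc25a36 gave 19.4 ± 0.623 CPM with apoptotic cells under cytochalasin D and 18.8 ± 1.59 CPM with cytochalasin D alone (SD, n = 4 each), a log2 difference of 0.04 with a 95% interval of -0.16 to 0.25 (edgeR adjusted p = 0.862). Slc25a33 did not pass (log2 0.13, edgeR adjusted p = 0.327). The call of Slc25a37 held without any single library, that of Slc25a46 was lost without cytochalasin D replicate 1 or combined treatment replicate 4 (adjusted p up to 0.0865), and that of Slc25a42 without cytochalasin D replicates 1, 2 and 3, apoptotic cell replicate 4 or combined treatment replicates 2, 3 and 4 (adjusted p up to 0.154).

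Whether the effect of apoptotic cells depended on cytochalasin D was tested as that effect without the drug, in phagocytes called free here, minus that with it. In this difference, the block of engulfment and other effects of cytochalasin D cannot be told apart. For 3 of 34 carriers this difference passed, all negative, where 4.56% of all genes passed, 1.53% positive and 3.03% negative. Slc25a36 had the largest, at -0.83 on the log2 scale (SE 0.15, edgeR adjusted p = 0.00288): it was lower with apoptotic cells in free phagocytes and differed little under the drug. Slc25a37 gave -0.41 (SE 0.07, edgeR adjusted p = 0.00163), as it was lower with apoptotic cells in free phagocytes and higher under cytochalasin D. Slc25a46 gave -0.61 (SE 0.16, edgeR adjusted p = 0.0274). Slc25a46 had 14.8, 23.1, 18.4 and 23.6 CPM with apoptotic cells, against 24.3, 23.3, 22.6 and 22.2 CPM in control phagocytes. In free phagocytes its libraries with apoptotic cells were the most spread, and replicate 1 was the lowest. The differences for Slc25a36 and Slc25a37 passed without any single library, and that for Slc25a46 was lost without control replicate 1, cytochalasin D replicate 1, apoptotic cell replicate 3 or combined treatment replicate 4 (adjusted p up to 0.0726).

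**Figure D3:**
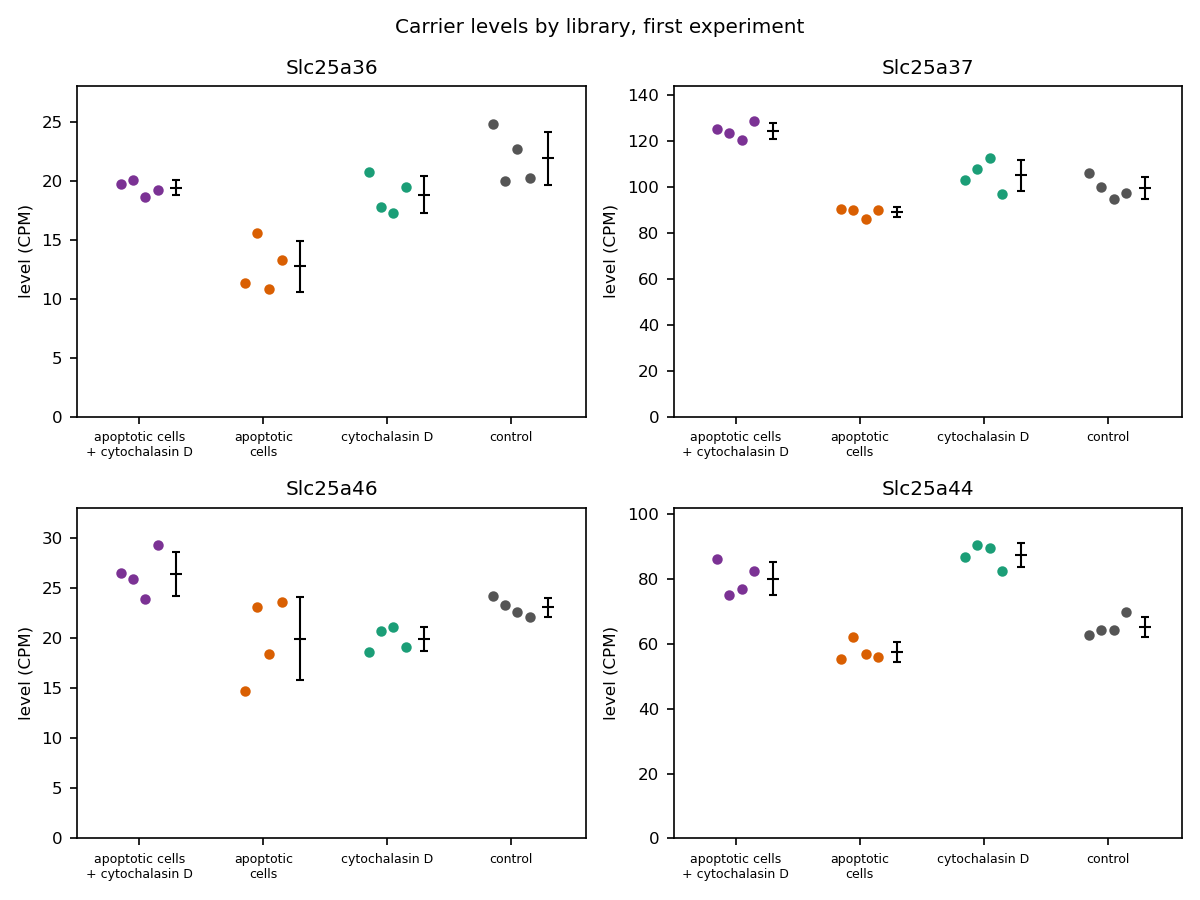
Level in CPM (y) of Slc25a36, Slc25a37, Slc25a46 and Slc25a44 in each library of the first experiment (points, 4 per group), with the group mean ± SD beside them in black. Slc25a36 is lowest in the libraries with apoptotic cells alone, Slc25a37 and Slc25a46 are highest with both treatments, and Slc25a44 is higher in both groups with cytochalasin D than in both without.

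The combined treatment was set against apoptotic cells alone to give the drug's change in the presence of corpses, in which the block of engulfment and other effects of cytochalasin D cannot be told apart. It shares the libraries with apoptotic cells with the comparison to control above, and its values for the same genes are not independent of that one. Slc25a36 was 1.52-fold higher, at 19.4 ± 0.623 CPM with both treatments and 12.8 ± 2.16 CPM with apoptotic cells (SD, n = 4 each, log2 0.61, SE 0.11, edgeR adjusted p = 0.000141). Slc25a37 had 125, 123, 120.3 and 129 CPM with apoptotic cells and cytochalasin D, against 90.2, 89.7, 85.8 and 90.1 CPM with apoptotic cells. For Slc25a37 the lowest library with both treatments stood well above the highest without the drug (log2 0.48, SE 0.05, edgeR adjusted p = 5.73e-08). Slc25a44 had 86.2, 75.1, 76.9 and 82.6 CPM with apoptotic cells and cytochalasin D, against 55.4, 62.2, 56.8 and 56.0 CPM with apoptotic cells. Slc25a44 was likewise apart, by 1.40-fold (log2 0.48, SE 0.06, edgeR adjusted p = 5.23e-07), beside the log2 0.42 with cytochalasin D alone over control, and its effect of apoptotic cells without minus with the drug was -0.06 (edgeR adjusted p = 0.708). Slc25a46 and Slc25a30 were higher too (1.32-fold and 1.20-fold, edgeR adjusted p = 0.00743 and 0.00294).

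Lower with both treatments than with apoptotic cells alone were 9 carriers. Slc25a15 had 14.8, 17.5, 13.1 and 15.4 CPM with apoptotic cells and cytochalasin D, against 19.98, 23.8, 17.1 and 19.8 CPM with apoptotic cells. The ornithine carrier was 1.34-fold lower, with 1 library of the combined treatment inside the range of the other group (log2 -0.42, SE 0.11, edgeR adjusted p = 0.00404). Slc25a38 had 13.0, 14.5, 12.6 and 13.9 CPM with apoptotic cells and cytochalasin D, against 15.2, 16.3, 18.3 and 19.5 CPM with apoptotic cells. This glycine carrier, which supports haem synthesis, was 1.30-fold lower (log2 -0.37, SE 0.11, edgeR adjusted p = 0.0132). Slc25a10 had 60.4, 59.3, 56.2 and 53.4 CPM with apoptotic cells and cytochalasin D, against 70.8, 72.2, 79.7 and 72.1 CPM with apoptotic cells. The dicarboxylate carrier, which exchanges malate and succinate for phosphate, was 1.29-fold lower (log2 -0.36, SE 0.08, edgeR adjusted p = 0.000795). Slc25a42 had 19.4, 18.9, 18.7 and 16.2 CPM with apoptotic cells and cytochalasin D, against 21.5, 21.4, 26.1 and 23.5 CPM with apoptotic cells. That coenzyme A carrier was 1.27-fold lower (log2 -0.34, SE 0.09, edgeR adjusted p = 0.0044). Slc25a22, Slc25a28, Slc25a12 and Slc25a39, which carry glutamate, iron, aspartate with glutamate, and glutathione, also fell, by log2 values of -0.12 for Slc25a39 to -0.31 for Slc25a22.

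With 14 of 34 carriers (41.2%) called, 5 higher and 9 lower, against 32.5% of all genes tested, 16.4% higher and 16.1% lower, this comparison gave the most calls in the first experiment. The median log2 difference was -0.08 over the carriers and 0.00 over all genes. Slc25a33 did not pass (log2 0.04, edgeR adjusted p = 0.705), nor did Slc25a5 (log2 0.02, edgeR adjusted p = 0.766). Calls were lost for Slc25a38 without apoptotic cell replicate 4 (adjusted p up to 0.0554), for Slc25a39 without apoptotic cell replicate 3 or combined treatment replicate 3 (adjusted p up to 0.129) and for Slc25a12 without apoptotic cell replicates 1, 3 and 4 or combined treatment replicates 2 and 3 (adjusted p up to 0.0972). Whichever single library was left out, 10 calls held.

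The second experiment asks how engulfing Slc12a2-deficient phagocytes differ from engulfing wildtype ones. Of the 34 carriers, 13 were higher in Slc12a2-deficient cells and 1 was lower, and these 14 (41.2%) stand beside 42.5% of all 13050 genes tested, 21.1% of them higher and 21.3% lower. The share of carriers called was thus near the background. The median log2 difference was 0.07 over the carriers and 0.00 over all genes. With the gene length trend removed the split was 14 higher and 3 lower. The libraries fall into 2 runs of library numbers, 9 to 12 and 13 to 16, with 2 of each genotype in each run, and libraries of the same run deviated together (median r of 0.27 over 8 pairs, against -0.25 over the 8 pairs of different runs). With the run as a block, 14 carriers were higher and 5 lower, the 14 above among them, and the added calls were Slc25a17 higher and Slc25a1, Slc25a14, Slc25a22 and Slc25a33 lower. Within single runs, all 14 had the same sign in both, with 10 higher and 1 lower called in the first run and 12 higher and 4 lower in the second. All 14 calls held without any single library, while within a run alone those of Slc25a13, Slc25a35 and Slc25a41 were lost in the first and those of Slc25a11 and Slc25a35 in the second.

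Slc25a28, or mitoferrin-2, the iron carrier of most cell types, rose with the smallest p. Slc25a28 had 70.1, 78.0, 75.6 and 75.9 CPM in Slc12a2-deficient phagocytes, against 43.1, 45.3, 43.1 and 41.1 CPM in wildtype phagocytes. The lowest deficient library was far above the highest wildtype library, and the mean was 1.74-fold higher (log2 0.80, SE 0.05, edgeR adjusted p = 5.12e-09). The other iron carrier, Slc25a37, did not follow. Slc25a37 had 134, 135, 146 and 145 CPM in Slc12a2-deficient phagocytes, against 143, 144, 147 and 149.6 CPM in wildtype phagocytes. Its groups overlapped (log2 -0.06, edgeR adjusted p = 0.282, 95% interval -0.15 to 0.02).

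Slc25a32 had 21.6, 20.6, 21.99 and 21.8 CPM in Slc12a2-deficient phagocytes, against 13.3, 12.3, 11.4 and 13.4 CPM in wildtype phagocytes. Slc25a32, which carries folate and flavin adenine dinucleotide, was 1.71-fold higher, without overlap (log2 0.77, SE 0.07, edgeR adjusted p = 3.53e-07). Slc25a20 had 64.2, 72.9, 68.3 and 62.6 CPM in Slc12a2-deficient phagocytes, against 46.3, 43.4, 43.0 and 41.2 CPM in wildtype phagocytes. The acylcarnitine carrier, through which long-chain fatty acids reach oxidation in the matrix, was 1.54-fold higher (log2 0.62, SE 0.06, edgeR adjusted p = 3.64e-07). Slc25a41 had 0.893, 0.765, 0.611 and 1.07 CPM in Slc12a2-deficient phagocytes, against 0.471, 0.562, 0.261 and 0.358 CPM in wildtype phagocytes. Slc25a41, a carrier of ATP-Mg and phosphate, gave 21, 21, 17 and 24 fragments in the deficient libraries and 12, 13, 7 and 9 in the wildtype ones, and was 2.00-fold higher at this low depth (log2 1.00, SE 0.29, edgeR adjusted p = 0.0105). Its exons share 5 bases with Khsrp on the same strand.

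Slc25a12 had 69.1, 66.8, 63.6 and 70.0 CPM in Slc12a2-deficient phagocytes, against 46.5, 47.9, 45.8 and 45.1 CPM in wildtype phagocytes. Slc25a12, the calcium-sensitive aspartate and glutamate exchanger, was 1.45-fold higher (log2 0.54, SE 0.05, edgeR adjusted p = 2.51e-07), and its close relative Slc25a13 was 1.12-fold higher (log2 0.16, edgeR adjusted p = 0.0069). Their partner in the malate-aspartate shuttle, Slc25a11, was also higher (33.7 ± 2.43 CPM in deficient and 28.4 ± 1.69 CPM in wildtype cells, SD, n = 4 each, log2 0.25, edgeR adjusted p = 0.00604). The glutamate carriers Slc25a22 and Slc25a18 did not pass (log2 -0.12, edgeR adjusted p = 0.155, and log2 -0.22, edgeR adjusted p = 0.589). Slc25a36 was higher in the deficient cells. Slc25a36 had 32.2, 28.4, 32.7 and 32.3 CPM in Slc12a2-deficient phagocytes, against 24.3, 23.8, 24.1 and 22.8 CPM in wildtype phagocytes. The difference was 1.32-fold without overlap (log2 0.40, SE 0.06, edgeR adjusted p = 7.34e-05), while Slc25a33 had 37.7 ± 0.655 CPM in deficient and 42.0 ± 3.67 CPM in wildtype cells and lay at the threshold (log2 -0.16, edgeR adjusted p = 0.0529, against 0.027 with the run as a block, 0.0362 with the length trend removed and 0.0442 with a filter of 1 CPM).

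Smaller increases were called for Slc25a30 (log2 0.38, edgeR adjusted p = 1.95e-05), Slc25a3 (log2 0.29, edgeR adjusted p = 9.69e-05), Slc25a40 (log2 0.18, edgeR adjusted p = 0.00495) and Slc25a39 (log2 0.23, edgeR adjusted p = 0.001), and for Slc25a35, whose substrate is not established (log2 0.43, edgeR adjusted p = 0.0157). Exons of Slc25a39 and Slc25a35 overlap those of Rundc3a and Rangrf on the opposite strand by 86 and 29 bases, and fragments were counted without regard to strand. Slc25a47 fell, the single lower call in the fit on genotype alone. Slc25a47 had 1.02, 1.06, 1.08 and 0.932 CPM in Slc12a2-deficient phagocytes, against 2.63, 3.11, 2.84 and 2.54 CPM in wildtype phagocytes. This gene, known in mouse and human mainly from liver, was 2.70-fold lower in deficient cells, without overlap (log2 -1.43, SE 0.15, edgeR adjusted p = 2.07e-06).

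Markers of the line itself moved with genotype. Of 8 fibroblast markers tested, 1 was higher and 6 lower in Slc12a2-deficient cells. That is 87.5% of them, against 42.5% of all genes tested, 21.1% higher and 21.3% lower. The list of 11 summed to 4153 to 4456 ppm in deficient libraries and 4477 to 4767 ppm in wildtype ones. T lymphocyte markers summed to 49.6 to 55.1 ppm in deficient libraries and 54.4 to 60.5 ppm in wildtype ones, with Cd3g, Cd2 and Cd5 at 0 in both. Their part in the carriers' differences was not tested.

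**Figure D4:**
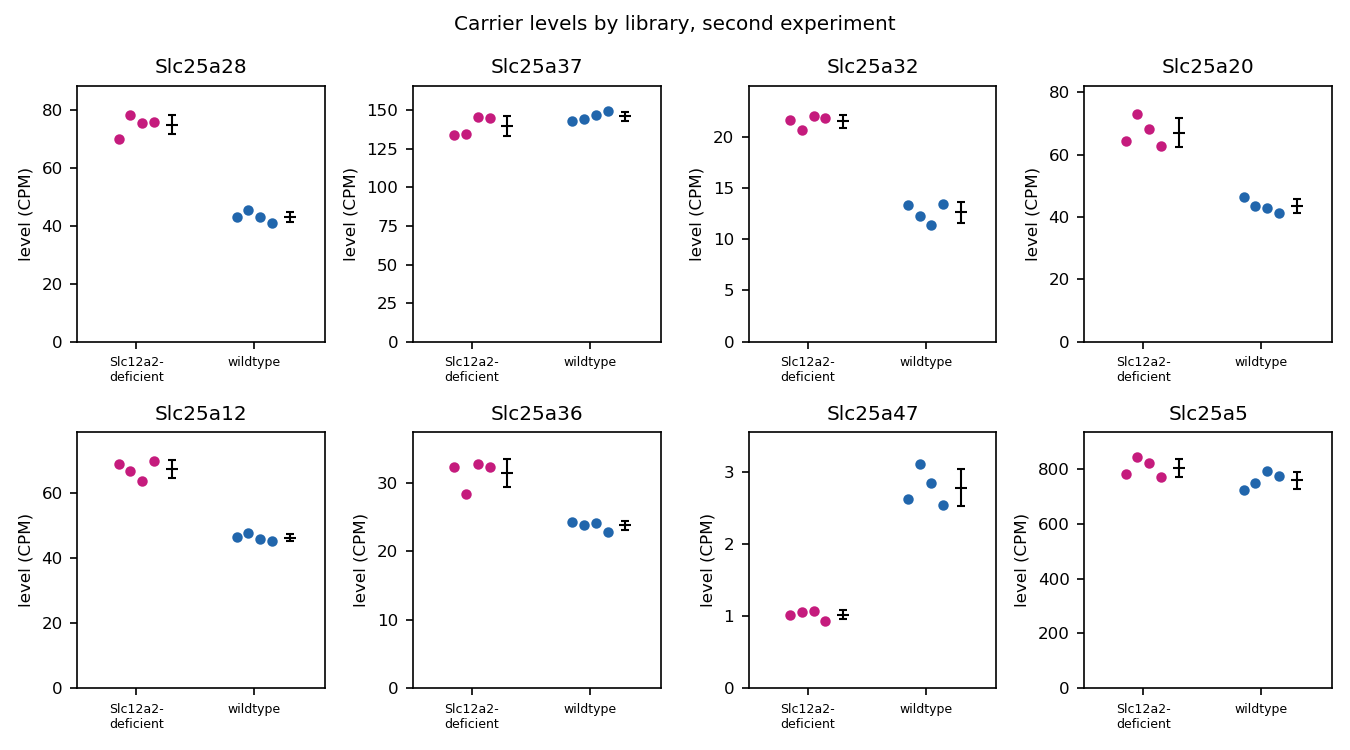
Level in CPM (y) of 8 Slc25 carriers in each library of the second experiment (points, 4 per genotype), with the mean ± SD beside them in black, Slc12a2-deficient cells left of wildtype. Slc25a28, Slc25a32, Slc25a20, Slc25a12 and Slc25a36 are higher and Slc25a47 is lower in every deficient library, while Slc25a37 and Slc25a5 overlap between genotypes.

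Over the 5 pairwise comparisons, 10 carriers were never called, 10 were called once, 9 were called in 2 comparisons and 5 in 3, and none in more. As shares these are 29.4, 29.4, 26.5 and 14.7% of the carriers, against 31.9, 31.9, 20.2 and 12.2% of the 12569 genes tested in all 5, of which a further 3.11% were called in 4 and 0.692% in 5. The 5 were the iron carriers Slc25a28 and Slc25a37, together with Slc25a30, Slc25a36 and Slc25a44. The 10 without a call were Slc25a1, Slc25a5, Slc25a14, Slc25a17, Slc25a18, Slc25a25, Slc25a26, Slc25a33, Slc25a43 and Slc25a45, which carry citrate, adenine nucleotides, peroxisomal cofactors, glutamate, ATP-Mg, S-adenosylmethionine and pyrimidine nucleotides among others. Their mean levels ran from 0.319 CPM for Slc25a18 with both treatments to 804 CPM for Slc25a5 in Slc12a2-deficient cells. The call count of a gene depends on its depth as well as on its change, and the 4 comparisons of the first experiment share libraries.

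By role, the 2 iron carriers were in no comparison called in the same direction, and the difference between them was not tested. Slc25a28 was lower with cytochalasin D than in control and did not pass for apoptotic cells over control (69.9 ± 3.36 and 69.9 ± 2.59 CPM, SD, n = 4 each, log2 0.00, edgeR adjusted p = 0.994, 95% interval -0.12 to 0.12). Slc25a37 did not pass for cytochalasin D (log2 0.08, edgeR adjusted p = 0.28). The 2 pyrimidine nucleotide carriers likewise had opposite signs for apoptotic cells and for genotype, with Slc25a33 at the edge of the threshold in both. Among the 8 cofactor carriers, 2 fell with apoptotic cells, 1 fell with apoptotic cells under cytochalasin D, 3 were lower with both treatments than with apoptotic cells alone, and 3 rose in Slc12a2-deficient cells. Of all genes tested, 6.68, 3.79, 16.1 and 21.1% were called in these directions in the same comparisons. Of the 3 carriers of other amino acids, the branched-chain amino acid carrier Slc25a44 was called in 3 comparisons, and the ornithine and glycine carriers Slc25a15 and Slc25a38 in 1 each. Of all genes tested in the 5 comparisons, 12.2% were called in 3 and 31.9% in 1.

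Genes that act beside the carriers gave the following. Of the family's members under other names, Ucp2 rose with apoptotic cells, at 0.904 ± 0.414 CPM, against 0.200 ± 0.242 CPM in control (SD, n = 4 each, log2 2.13, edgeR adjusted p = 0.0223), and under cytochalasin D, at 0.680 ± 0.231 CPM with apoptotic cells, against 0.129 ± 0.0816 CPM without (log2 2.40, edgeR adjusted p = 0.0379). Of the mitochondrial carrier homologues, Mtch1 was higher with cytochalasin D than in control (log2 0.12, edgeR adjusted p = 0.0123) and lower with apoptotic cells under the drug (log2 -0.16, edgeR adjusted p = 0.00506), where Mtch2 was higher (log2 0.16, edgeR adjusted p = 0.0458). For Ucp2, the levels without apoptotic cells lie near that of 3 counts per library, and 1 control library had no Ucp2 fragment. Control replicate 2, at 0.546 CPM of Ucp2, lay inside the range with apoptotic cells alone (0.522 to 1.28 CPM). In the second experiment, where all phagocytes had engulfed, Ucp2 stood at 0.175 ± 0.118 CPM in deficient and 0.274 ± 0.144 CPM in wildtype cells. The part of corpse RNA in the Ucp2 values was not tested. Genes outside the family were not refitted without single libraries. Of 17 other mitochondrial transport proteins tested, 1 was higher with apoptotic cells, 2 were higher and 3 lower with cytochalasin D, none was called for apoptotic cells under cytochalasin D, 1 was higher and 2 lower for both treatments over apoptotic cells, and 6 were higher and 2 lower in Slc12a2-deficient cells. These are 5.88, 29.4, 0, 17.6 and 47.1% of the list, against 13.7, 26.3, 8.61, 32.5 and 42.5% of all genes in the same comparisons. The largest of these was Sfxn3, a sideroflexin, at 80.0 ± 1.51 CPM in deficient and 28.9 ± 1.73 CPM in wildtype cells (SD, n = 4 each, log2 1.47, edgeR adjusted p = 6.53e-12). Of 11 genes for import of carriers through the outer membrane and insertion into the inner membrane, none was called for apoptotic cells over control. With cytochalasin D 2 were lower, and for apoptotic cells under cytochalasin D 2 were higher. For both treatments over apoptotic cells 2 were lower, and in Slc12a2-deficient cells 6 were higher and 3 lower. These are 0, 18.2, 18.2, 18.2 and 81.8% of this list in the same order, beside the same shares of all genes.

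Of 10 factors that drive mitochondrial biogenesis, 1, Esrra, rose with apoptotic cells (log2 0.33, edgeR adjusted p = 0.0321), and 5 fell with cytochalasin D, namely Tfam, Tfb2m, Ppargc1b, Pprc1 and Esrra, by log2 values of -0.22 for Pprc1 to -0.46 for Tfb2m. Under cytochalasin D, 2 rose with apoptotic cells, and for both treatments over apoptotic cells 1 was higher and 2 lower. In Slc12a2-deficient cells 3 were higher and 2 lower. The called shares were 10, 50, 20, 30 and 50% of these factors, beside 13.7, 26.3, 8.61, 32.5 and 42.5% of all genes. Pprc1, a coactivator related to PGC-1, stood at 519 ± 47.7 CPM in deficient and 256 ± 6.35 CPM in wildtype cells (SD, n = 4 each, log2 1.02, edgeR adjusted p = 1.45e-09).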

How the data were processed

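RNA was measured in 24 libraries, 4 in each of 6 groups in 2 experiments. The authors counted fragments per gene name with featureCounts 1.5.0 after STAR alignment, and deposited raw counts over exons, with strand ignored, per the file headers. The submitters' processing notes also list FastQC and DESeq2, and the genome build is not given in the sources used here. A row with a blank name, 0.0249 to 1.65% of counts per library, was left out.

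The 2 experiments were fitted separately in R 4.3.3. Genes were kept by filterByExpr of edgeR 4.0.16 at a minimum count of 10 and a total of 15, scaled by TMM, and tested on group alone by quasi-likelihood. Calls have a Benjamini-Hochberg adjusted p under 0.05 over all genes tested. Levels are TMM-scaled CPM, per kb of the exon length in the tables where genes are compared. Biological coefficients of variation were 7.04% and 6.06%. A count of 0 allows up to 3 counts, for counting error only.

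Values by library and fold changes are given for Slc25a36, Slc25a33 and Slc25a5 and, per comparison and direction, for up to 4 called carriers with the largest changes. Other carriers are named by level or call, some after their values were seen. The members, role lists, lists of neighbouring mitochondrial genes and markers were chosen with earlier results of these data known. Symbols of 43 of the 44 rows matched RefSeq. Slc25a24, Slc25a51 and Slc25a52 were not analysed here, and Slc25a32 has exons on more than 1 scaffold in the tables. Alternatives were DESeq2 1.42.0, RLE factors, all genes without a filter, at least 1 CPM in at least 4 libraries, removal of the gene length trend, members of at least 1 CPM, a replicate block, each run of library numbers alone, the 8 compared libraries alone and each library left out. The tests were tried on simulated data. Of the carriers counted, 1 is not reported by name or plotted here.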

Additional observations from a re-analysis of the deposited data

Results flagged for a closer look

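For Slc25a36, the effect of apoptotic cells without cytochalasin D minus that with it was -0.83 on the log2 scale, for Slc25a46 -0.61 and for Slc25a37 -0.41, and the difference itself passed edgeR's test in each case. In free phagocytes Slc25a36 and Slc25a37 were lower with apoptotic cells than in control, whereas under cytochalasin D Slc25a37 was higher with apoptotic cells than without.

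Single libraries stood far from the other 3 of their group in 7 of 132 groups of 4 looked at for 22 carriers, and chance marks about 1 in 20. Slc12a2-deficient replicate 2 had 28.4 CPM of Slc25a36, against 32.2 to 32.7 CPM in the other deficient libraries, and 19.7 CPM of Slc25a16, against 16.2 to 16.6 CPM. Apoptotic cell replicate 3 had 79.7 CPM of Slc25a10, against 70.8 to 72.2 CPM in the others of its group, and 85.8 CPM of Slc25a37, against 89.7 to 90.2 CPM. Apoptotic cell replicate 1 had 2.10 CPM of Slc25a47, against 1.39 to 1.51 CPM. Cytochalasin D replicate 3 had 779 CPM of Slc25a3, against 792 to 794 CPM, and control replicate 2 had 1.46 CPM of Slc25a47, against 1.04 to 1.09 CPM.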

How the results depend on the processing

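DESeq2 and RLE factors left all 46 called values of single carriers called in the same direction, and no alternative reversed a called value. With the gene length trend removed, 4 carriers were called for apoptotic cells over control, 3 of them among the original 8, and the 8 compared libraries alone left 2 called for cytochalasin D over control. With single libraries left out, the number of carriers called ran from 2 to 11 for apoptotic cells over control, 2 to 6 for cytochalasin D over control, 1 to 4 for apoptotic cells under cytochalasin D, 11 to 15 for both treatments over apoptotic cells, 2 to 4 for the difference between effects and 14 to 16 for genotype, and the log2 difference of Slc12a2 from -1.99 to -1.93. Values not called that changed sign were Slc25a5 for apoptotic cells over control with the length trend removed (-0.0529), Slc25a5 for both treatments over apoptotic cells (-0.0112 to 0.0374 with single libraries left out, lowest without combined treatment replicate 4), and Slc25a33 for both treatments over apoptotic cells (-0.000407 to 0.12, lowest without apoptotic cell replicate 2). The cause was not tested. Fits with a single library left out had fewer libraries, whereas the fit with the length trend removed used all 16 of the first experiment.

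With the replicate block, 8, 5, 2, 14, 3 and 19 carriers were called in these 6 comparisons. Taken over all groups, same-numbered libraries of the first experiment did not deviate together (r of -0.36 to 0.54, with 7 of 24 pairs over 0.1), and were not taken as paired. Between cytochalasin D alone and the combined treatment, however, replicates 1 and replicates 4 did (r of 0.54 and 0.53), while replicates 2 and replicates 3 gave 0.08 and 0.09. With the block, Slc25a42 was no longer called in that comparison (edgeR adjusted p = 0.0574). Slc25a44 was then no longer called for apoptotic cells over control (edgeR adjusted p = 0.0531). In the second experiment the block was the run of library numbers, to which the labels give no meaning. There 7 of 8 pairs of the same run were over 0.1 and 1 was at 0.0523. Since not every pair was over 0.1, the fit without the block was kept, although libraries of a run did deviate together. The runs taken alone, an alternative chosen after seeing the data, gave 11 and 16 called carriers. Depth limits Slc25a18, Slc25a41 and Slc25a47, with at most 27 fragments in any library of the first experiment, where small changes were not detectable.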

Other observations

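Slc25a29, a carrier of basic amino acids, was just under the level for membership. It had 5, 11, 6 and 5 fragments in Slc12a2-deficient libraries, against 6, 14, 9 and 10 in wildtype ones. In the first experiment it had 7 fragments in all with both treatments, 17 with apoptotic cells, 0 with cytochalasin D and 5 in control. The other 8 carriers below the level, leaving out Slc25a4, peaked at 0 CPM for Slc25a48 to 0.0526 CPM for Slc25a23.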
